A study of Danio rerio with 8 samples.

Results

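The genes described here are the lens crystallins and the lens fibre genes of the zebrafish (Danio rerio), chosen by name from the deposited table. They comprise each gene whose symbol starts with crya, cryb, cryg, lim2 or bfsp, together with mipa, mipb and grifin. The rule found 66 of 31953 genes. There were 3 alpha crystallins, 13 beta crystallins, 35 gamma M, 2 gamma N and 4 gamma S crystallins, and 9 other lens fibre genes. RNA came from whole embryos held for 72 h in medium with high glucose (3 libraries), high salt (2 libraries) or neither (control, 3 libraries). The sources used here gave no strain, no concentrations, no number of embryos per library and no age at the start of treatment. Each column of counts carried a suffix, namely 2f, 2m and 1m for high glucose and control and 2m and 1m for high salt. What the suffix stands for was not stated, and libraries are named below by group and suffix. Nothing in the labels said that libraries of a group came from separate clutches, so p-values cover the spread among these libraries alone, which may be technical.

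Crystallins are the soluble proteins that fill the fibre cells of the lens and give it its refractive power. Alpha crystallins are related to small heat shock proteins and act as chaperones, beta and gamma crystallins share a fold of paired Greek key domains, and the gamma M class is a methionine-rich family expanded in fish. Lens fibre cells also need the water channel aquaporin 0 (encoded by mipa and mipb in zebrafish), the membrane protein lim2, the beaded filament protein bfsp2 and grifin, a lens galectin-related protein. In the zebrafish embryo, fibre cells elongate and fill with these proteins while the eye forms. In RNA from whole embryos, fewer lens cells and less lens RNA per cell cannot be told apart.

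Library totals ran between 14650129 and 17317519 counts, and values are given as CPM, the counts scaled to a common library size. At this depth 3 counts were worth 0.171 to 0.226 CPM. Of the 66 genes, 48 passed the filter on low counts: 1 alpha, 12 beta, 24 gamma M, 2 gamma N, 0 gamma S and 9 other fibre genes. The filter asked for enough counts in only 2 libraries, so a few high libraries could keep a gene. Counts over the 48 are therefore a description. Another 7 genes had no count in any library. The libraries control 1m and high salt 2m stood apart: over the log2 CPM of all tested genes their highest correlation with any other library was 0.943 for control 1m and 0.941 for high salt 2m, against 0.955 to 0.976 for the other 6 libraries. For some results that rest on them, values without them are also given. Fits that use the suffix as a block were run only with both of them included.

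The 66 genes together reached 1477, 4015 and 627 CPM in high glucose 2f, 2m and 1m, 1155 and 295 CPM in high salt 2m and 1m, and 853, 1594 and 132 CPM in control 2f, 2m and 1m. The highest library was 30.4-fold above the lowest. In each group the 1m library held the lowest sum, and the ranges of the groups overlapped. Ranked gene by gene, high glucose 2m was the highest library for 45 of the 48 tested genes and control 1m the lowest for 40, among them 4 where it tied with another library at 0 counts. The 3 exceptions at the top were crybb3 (highest in high salt 2m), crygm2d21 (highest in control 2m) and lim2.2 (highest in control 1m). These ranks were not counted over all tested genes, so whether they are particular to lens genes was not tested. The spread within groups was wide for these genes, with a median biological coefficient of variation of 0.875, against 0.28 over all 20562 tested genes.

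**Figure D1:**
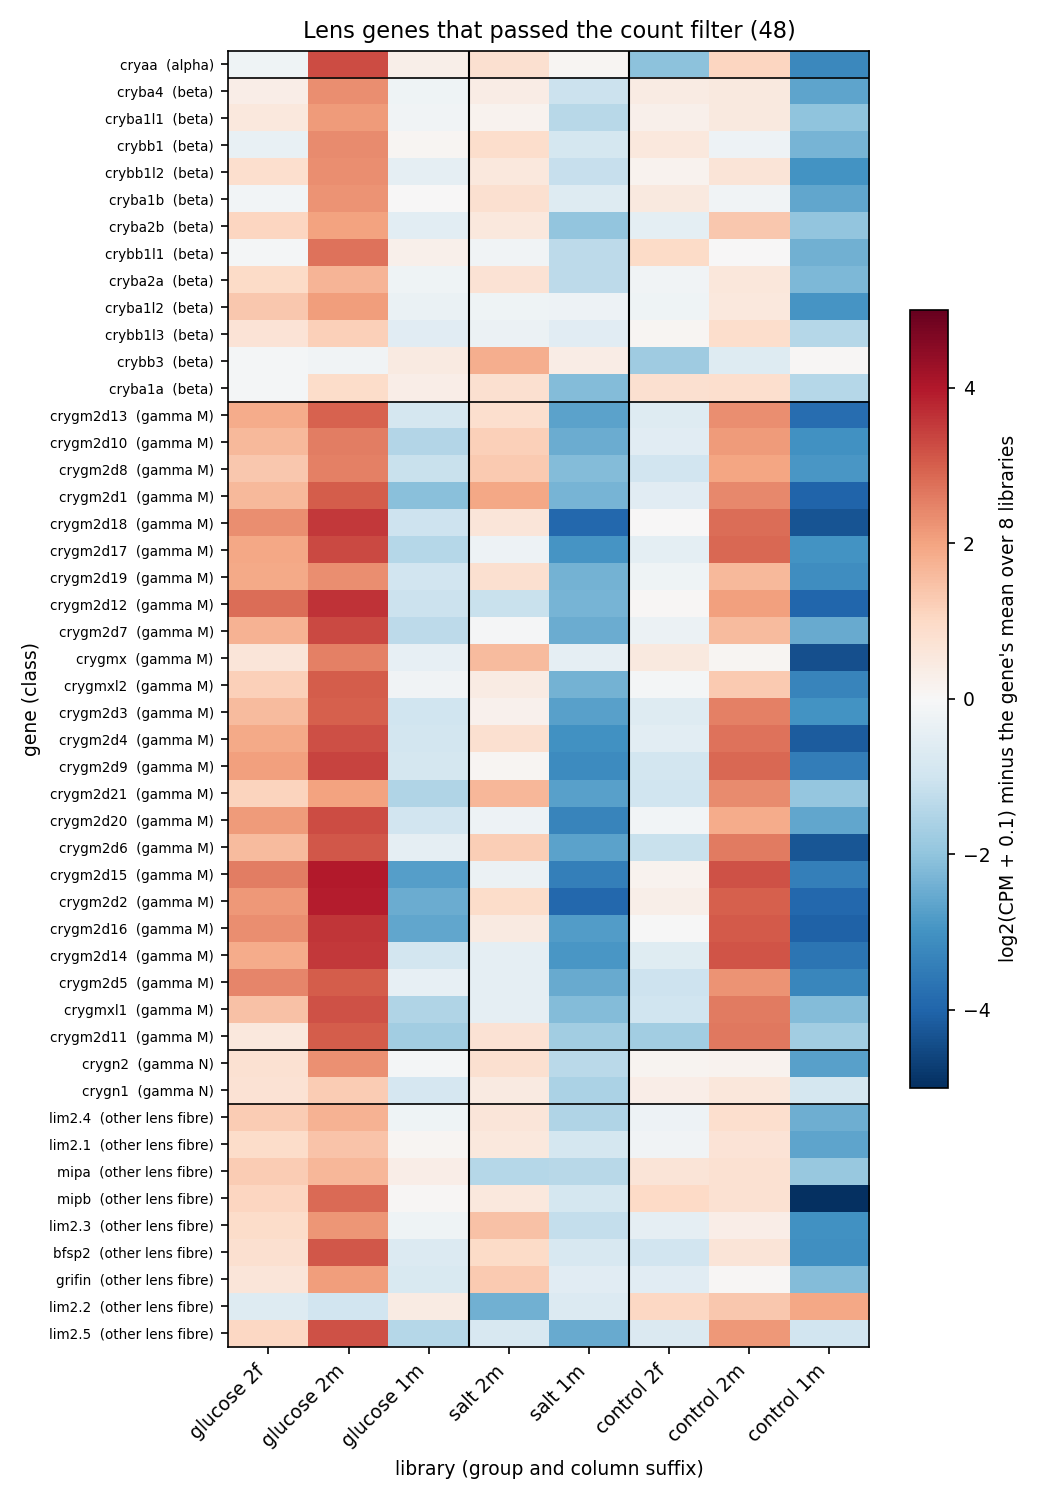
Level of each of the 48 tested lens genes in the 8 libraries (columns, by group and suffix), as log2(CPM + 0.1) minus the gene's mean over the libraries; rows are genes, ordered within class by mean level per length, and black lines separate groups and classes. High glucose 2m is red in nearly every row and control 1m is blue in nearly every row, with lim2.2 and crybb3 as departures.

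The alpha crystallins were nearly silent. The lens-restricted alpha A gene cryaa (chromosome 1, 28293049-28297091 in GRCz11) had 0.689, 8.76 and 1.03 CPM in high glucose 2f, 2m and 1m, 1.51 and 0.882 CPM in high salt 2m and 1m, and 0.122, 1.86 and 0 CPM in control 2f, 2m and 1m. High glucose 2m stood above the other libraries, and the groups overlapped. The alpha B genes cryaba and cryabb, which in mammals are also expressed in muscle and other tissues outside the lens, had 13 and 38 counts in all 8 libraries together and were not tested. The highest value of cryabb was 1.21 CPM in high salt 2m, and the highest of cryaba was 0.339 CPM in high salt 1m.

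The beta sum was above the gamma M sum in CPM in each library except control 2m (649 CPM for beta and 742 CPM for gamma M), and per length also except high glucose 2f (532 CPM per kb for beta and 565 CPM per kb for gamma M). Set per length, 4 genes led the class: cryba4 (chromosome 10, 44195430-44204668), cryba1l1 (chromosome 14, 47326024-47333048), crybb1 (chromosome 10, 44174427-44180594) and crybb1l2 (chromosome 1, 43738358-43745614), with means over the 8 libraries of 103, 90.8, 87.5 and 82.4 CPM per kb. cryba4, an acidic beta crystallin, had 61.9, 250.2 and 42.2 CPM in high glucose 2f, 2m and 1m, 64.5 and 23.2 CPM in high salt 2m and 1m, and 65.2, 69.9 and 7.93 CPM in control 2f, 2m and 1m. cryba1l1, a relative of beta A1, had 94.5, 284 and 57.9 CPM in high glucose 2f, 2m and 1m, 72.4 and 25.0 CPM in high salt 2m and 1m, and 76.5, 89.9 and 16.1 CPM in control 2f, 2m and 1m. Both genes kept the 1m library lowest within each group.

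crybb1, a basic beta crystallin, had 42.6, 282 and 59.3 CPM in high glucose 2f, 2m and 1m, 102 and 29.7 CPM in high salt 2m and 1m, and 80.1, 45.9 and 11.04 CPM in control 2f, 2m and 1m. Here control 2f was above control 2m, and high glucose 2f was below high glucose 1m. crybb1l2, a relative of beta B1, had 124, 346 and 50.6 CPM in high glucose 2f, 2m and 1m, 99.6 and 30.7 CPM in high salt 2m and 1m, and 78.3, 109 and 8.58 CPM in control 2f, 2m and 1m. It overlaps cryba1l2 on the opposite strand in the table's coordinates, and the sources do not say if strand was used in counting. Together with cryba1b, cryba2b, crybb1l1 and cryba2a these 4 genes made at least 96.3% of the summed beta CPM in each library.

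The abundant beta genes did not all keep the same order of libraries. crybb1, cryba1b and crybb1l1 stood higher in control 2f than in control 2m (112 against 59.6 CPM for crybb1l1, 78.2 against 49.1 CPM for cryba1b). cryba2b and cryba2a went the other way, with 42.7 CPM in control 2f and 156 CPM in control 2m for cryba2b. Among the rarer beta genes, crybb3 was the one that was highest in a salt library: it had 1.002, 0.939 and 1.48 CPM in high glucose 2f, 2m and 1m, 3.996 and 1.43 CPM in high salt 2m and 1m, and 0.244, 0.639 and 1.104 CPM in control 2f, 2m and 1m. crybb2, a major beta crystallin of the adult mammalian lens, had 8 counts in all libraries together and was not tested.

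The gamma M crystallins varied widely, with sums of 16.2 to 1256 CPM, against 89.6 to 2215 CPM for beta. Most of their CPM in each library came from 21 tandem copies named crygm2d1 to crygm2d21 on chromosome 9 (22280292-22528713). The copies made the smallest part in high salt 1m, with 23.3 of 32.8 CPM, where the 3 crygmx genes had 7.47 CPM. Each copy had between 88 and 6116 counts over all libraries. The genes on either side were quiet: of 8 lens genes just before the copies (22182223-22270120) 6 had no count in any library and the other two, crygmxl1 and crygm2e, had 131 counts and 1 count, and the 5 just after them (22533726-22555373) had at most 31 counts each. How reads shared by near-identical copies were counted was not given, 20 of the 35 gamma M genes overlap another lens gene in the table's coordinates, and values of single copies are uncertain to that extent.

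By length-scaled level the leading copies were crygm2d13, crygm2d10, crygm2d8, crygm2d1 and crygm2d18, with means over the libraries of 56.4, 48.5, 39.8, 34.9 and 24.3 CPM per kb. crygm2d13 had 54.6, 117 and 8.04 CPM in high glucose 2f, 2m and 1m, 27.1 and 2.24 CPM in high salt 2m and 1m, and 9.63, 75.5 and 0.975 CPM in control 2f, 2m and 1m. crygm2d10 had 68.8, 135 and 8.16 CPM in high glucose 2f, 2m and 1m, 51.6 and 3.94 CPM in high salt 2m and 1m, and 15.3, 98.3 and 2.66 CPM in control 2f, 2m and 1m. In both copies each 1m library lay below each suffix 2 library, whatever the treatment.

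crygm2d8 had 47.7, 107 and 8.67 CPM in high glucose 2f, 2m and 1m, 46.8 and 4.07 CPM in high salt 2m and 1m, and 9.51, 73.1 and 2.404 CPM in control 2f, 2m and 1m. crygm2d1 had 43.0, 115 and 3.19 CPM in high glucose 2f, 2m and 1m, 52.5 and 2.65 CPM in high salt 2m and 1m, and 9.33, 73.0 and 0.780 CPM in control 2f, 2m and 1m. crygm2d18 had 23.0, 53.2 and 2.17 CPM in high glucose 2f, 2m and 1m, 6.86 and 0.204 CPM in high salt 2m and 1m, and 4.51, 32.1 and 0.130 CPM in control 2f, 2m and 1m. All of these copies were lowest in control 1m, and the treatment groups overlapped in every one.

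Summed, the 21 copies reached 519, 1123 and 63.6 CPM in high glucose 2f, 2m and 1m, 291 and 23.3 CPM in high salt 2m and 1m, and 105, 705 and 14.7 CPM in control 2f, 2m and 1m. In control 1m, 7 of the 21 copies had no count. The 4 leading copies of each library carried between 44.9% (high glucose 2m) and 66.3% (high salt 2m) of the sum. All 21 copies had counts in high salt 2m. Of the other gamma M genes, crygmx had 11.5, 43.9 and 5.59 CPM in high glucose 2f, 2m and 1m, 22.4 and 5.50 CPM in high salt 2m and 1m, and 10.5, 7.96 and 0.260 CPM in control 2f, 2m and 1m. crygm4 had 38 counts in all, with 7 in high salt 2m and 25 in high salt 1m, against 4 in the high glucose and 2 in the control libraries. The ratio of the summed high salt to the summed control libraries was 28.0 (exact binomial 95% interval 7.14 to 241, counting error only), and most of those counts came from high salt 1m.

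The gamma N class, with features between beta and gamma crystallins, was carried by crygn2 (chromosome 24, 41441956-41449024). crygn2 had 52.1, 152 and 29.2 CPM in high glucose 2f, 2m and 1m, 53.8 and 12.1 CPM in high salt 2m and 1m, and 34.4, 34.7 and 4.68 CPM in control 2f, 2m and 1m. crygn1 stayed between 0.204 CPM in high salt 1m and 2.07 CPM in high glucose 2m. The control libraries 2f and 2m had nearly the same crygn2 level, although the gamma M sum differed 5.92-fold between them. The gamma S genes, which in mammals are among the last crystallins to be made in the lens, were at the edge of detection, with 27, 13 and 13 counts over all libraries for crygs1, crygs4 and crygs2 and none for crygs3.

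Among the fibre membrane genes, mipa (chromosome 23, 27141684-27146233) and mipb (chromosome 23, 6703639-6707251), the pair of aquaporin 0 genes, behaved unequally. mipa had 69.8, 92.3 and 37.1 CPM in high glucose 2f, 2m and 1m, 10.8 and 11.1 CPM in high salt 2m and 1m, and 45.8, 50.2 and 7.86 CPM in control 2f, 2m and 1m. mipb had 25.4, 85.8 and 12.5 CPM in high glucose 2f, 2m and 1m, 17.27 and 6.45 CPM in high salt 2m and 1m, and 24.4, 20.5 and 0.195 CPM in control 2f, 2m and 1m. For mipa the 2 high salt libraries were level with each other and below each high glucose library, which the sum of no crystallin class showed.

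The lim2 family encodes membrane proteins of the fibre cells. lim2.4 (chromosome 19) was the most abundant per length, at 73.5, 103 and 26.1 CPM in high glucose 2f, 2m and 1m, 46.8 and 10.8 CPM in high salt 2m and 1m, and 25.4, 54.5 and 5.65 CPM in control 2f, 2m and 1m. lim2.1 and lim2.3 had the same lowest library, control 1m, at 2.14 and 0.715 CPM, and the same highest one, high glucose 2m, at 37.2 and 31.1 CPM. lim2.2 ran the other way: it had 0.501, 0.376 and 1.14 CPM in high glucose 2f, 2m and 1m, 0.0754 and 0.475 CPM in high salt 2m and 1m, and 1.83, 2.27 and 3.44 CPM in control 2f, 2m and 1m, so that each control library lay above each treated library. lim2.5 was between 0 CPM in high salt 1m and 5.13 CPM in high glucose 2m, and it shares its strand and overlaps another gene.

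The cytoskeletal and cytosolic fibre genes were rarer. bfsp2, the beaded filament gene, had 4.13, 21.2 and 1.43 CPM in high glucose 2f, 2m and 1m, 4.60 and 1.29 CPM in high salt 2m and 1m, and 1.16, 3.78 and 0.195 CPM in control 2f, 2m and 1m. grifin had 1.503, 4.32 and 0.513 CPM in high glucose 2f, 2m and 1m, 2.49 and 0.611 CPM in high salt 2m and 1m, and 0.610, 0.988 and 0.130 CPM in control 2f, 2m and 1m. Both were lowest in the 1m library of their group.

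**Figure D2:**
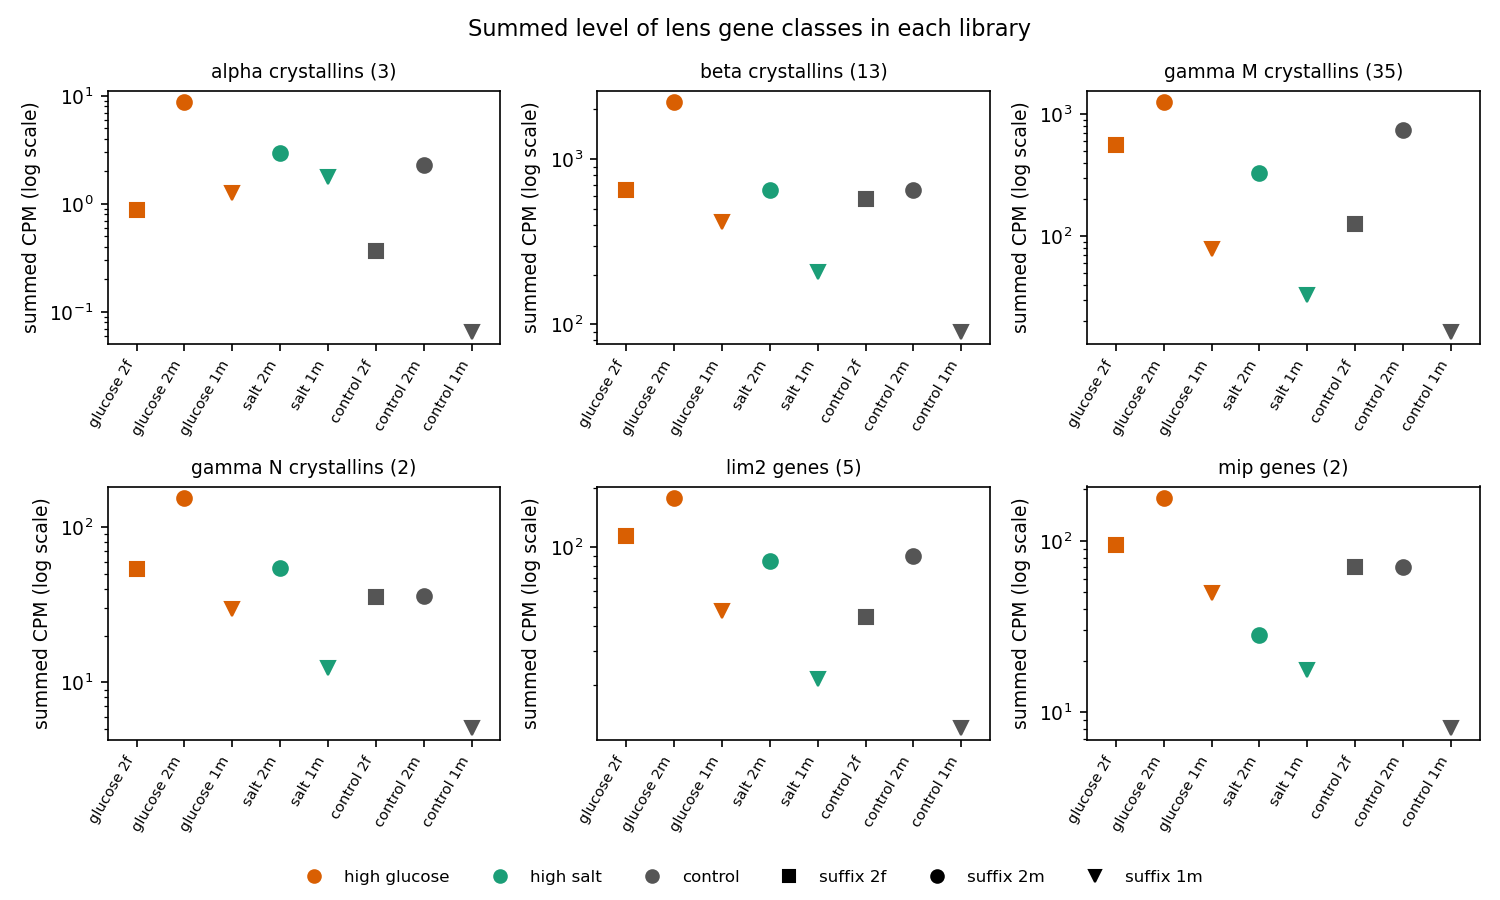
Summed CPM (log axis) of 6 sets of lens genes in each library; colour gives the group and marker shape the suffix, and each point is 1 library. Gamma M sums run from 16.2 CPM in control 1m to 1256 CPM in high glucose 2m, while the sums of the 2 mip genes lie at 28.0 and 17.6 CPM in high salt 2m and 1m.

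The balance between classes was set per length, as the share of the summed crystallin level (CPM per kb). Beta crystallins held 46.2, 56.0 and 76.4% in high glucose 2f, 2m and 1m, 59.2 and 78.9% in high salt 2m and 1m, and 75.3, 39.3 and 78.3% in control 2f, 2m and 1m. The gamma classes together held 53.8, 43.8 and 23.4% in high glucose 2f, 2m and 1m, 40.6 and 20.7% in high salt 2m and 1m, and 24.7, 60.6 and 21.7% in control 2f, 2m and 1m. Alpha crystallins held no more than 0.475% in any library.

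In the 3 libraries with suffix 1m the make-up was alike, with the gamma M level at 0.219 (high glucose), 0.188 (high salt) and 0.200 (control) of the beta level, although the summed crystallin level of those libraries differed. Control 2f sat near them at 0.252. High glucose 2f, high glucose 2m, high salt 2m and control 2m had ratios of 1.06, 0.699, 0.584 and 1.47. By group the gamma share averaged 40.3 ± 15.5% in high glucose, 30.6 ± 14.1% in high salt and 35.6 ± 21.7% in control (SD, n = 3, 2 and 3), so the group means differed by less than the spread within the groups. No test was run on these shares.

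**Figure D3:**
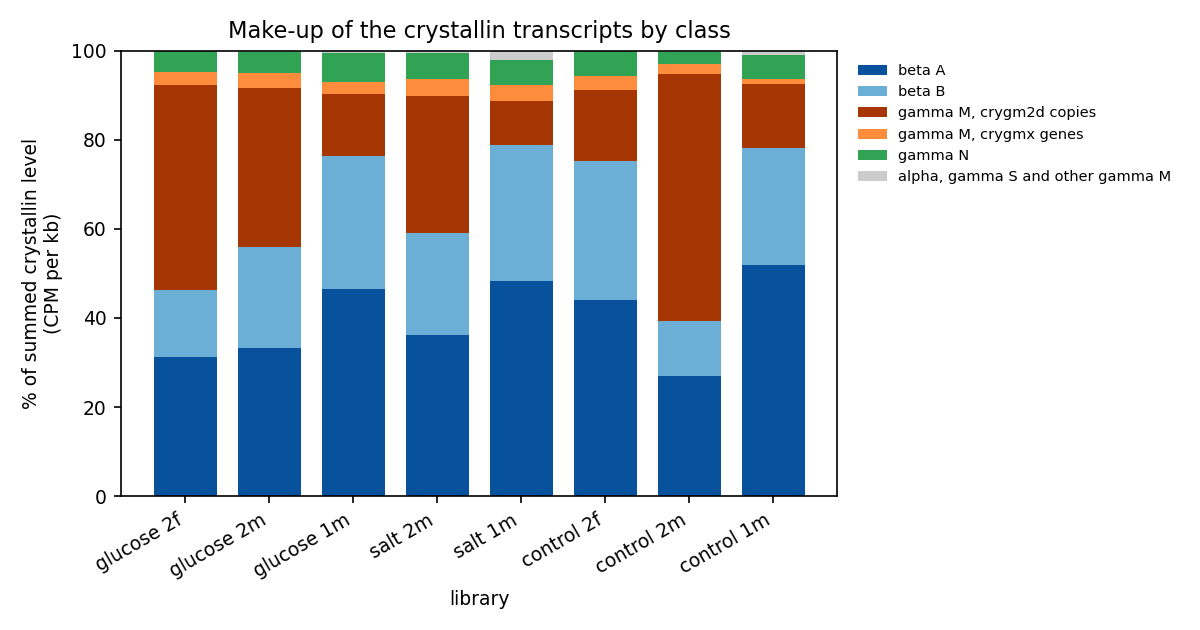
Share of the summed crystallin level (% of CPM per kb) held by each class in each library, as stacked bars that reach 100%. Gamma crystallins of all classes hold 20.7 to 24.7% in the 1m libraries and control 2f, and 40.6 to 60.6% in the other 4 libraries. Red, orange and green show the crygm2d copies, the crygmx genes and gamma N. The grey part holds alpha, gamma S and the other gamma M genes.

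High glucose was set against control to ask whether raised glucose moves the lens transcripts. The point estimates lay above control for 47 of the 48 tested genes (50% of all tested genes), with a median log2 fold change of 1.097, against 0.00 over all tested genes. None of them passed. With p-values adjusted over all tested genes (Benjamini-Hochberg), edgeR's quasi-likelihood test found that 0 lens genes were higher or lower (0% of all tested genes were higher), and DESeq2 and limma voom also called 0. At an unadjusted p under 0.05, 0 lens genes were higher (1.85% of all tested genes) and 1, lim2.2, was lower (4.12%).

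By class the medians were 1.28 for 12 beta genes, 0.95 for 24 gamma M genes, 1.09 for 2 gamma N genes and 1.24 for 9 fibre genes. The largest estimates were those of cryaa (2.36 ± 1.26), bfsp2 (2.36 ± 1.07), crygm2d12 (1.89 ± 1.19) and grifin (1.84 ± 0.90; log2 ± SE, n = 3 and 3, adjusted p = 0.76 for each by edgeR). Abundant genes had lower estimates with similar errors, such as crygn2 (1.66 ± 0.81), crybb1 (1.49 ± 0.83), lim2.4 (1.24 ± 0.77) and crygm2d13 (1.06 ± 1.297). lim2.2 stood alone below 0, at -1.88 ± 0.63 (adjusted p = 0.76). It was also the 1 tested lens gene whose groups did not overlap (7.67% of all tested genes did so in that direction, and 7.13% in the other).

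Libraries of the same suffix deviated together across the transcriptome, so the suffix was also used as a block. In that fit 4 lens genes rose in high glucose: lim2.3 (1.97 ± 0.29, adjusted p = 0.034), crygm2d20 (1.78 ± 0.27, adjusted p = 0.037), lim2.4 (1.499 ± 0.24, adjusted p = 0.048) and cryba2a (1.41 ± 0.21, adjusted p = 0.036), in edgeR with 3 residual degrees of freedom. Over all tested genes 0.0195% rose in that fit, so these 4 were all the genes that rose in it. Another 32 tested genes fell in it, 0 of them lens genes. It was run only with all libraries included. With no block and without both control 1m and high salt 2m, lim2.3 was at 1.32 ± 0.60 and crygm2d20 at 1.07 ± 0.93. In the same fit lim2.4 was at 0.75 ± 0.50 and cryba2a at 0.77 ± 0.46. Each estimate was below that of the block fit, with a larger error. These values do not show that the 4 calls hold without those libraries. Within suffix, high glucose was above control in 42 of 48 tested genes for 2f, 46 for 2m and 45 for 1m, against 52.7, 50.4 and 49.9% of all tested genes.

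The size of the difference depended on single libraries. The median over the tested lens genes was 0.16 without high glucose 2m, 2.66 without control 2m and 0.62 without control 1m. The gamma M median was -0.16 without high glucose 2m and 3.48 without control 2m, and the class summed to 1 gene stood at 1.098 ± 1.26 (adjusted p = 0.84). Within suffix 2f the gamma M sum in high glucose was 4.44-fold that in control. The sum was 2.56-fold for the lim2 genes, 1.51-fold for gamma N and 1.36-fold for the mip genes. For beta the sum was 1.13-fold, with the cryba genes at 1.41-fold and the crybb genes at 0.826-fold. Within suffix 2m the sum was 1.69-fold for gamma M and 3.41-fold for beta, and within 1m it was 4.86-fold and 4.66-fold.

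High salt was set against control in the same way, with the same control libraries. The point estimates were above 0 for 13 of 48 tested genes (47.5% of all tested genes) and below it for 35 (52.5%), with a median of -0.51, against -0.04 over all tested genes. edgeR's quasi-likelihood test called 0 lens genes higher and 0 lower, where 2.94% of all tested genes were higher and 2.41% lower. At an unadjusted p under 0.05, 1 lens gene was higher (12.4% of all tested genes) and 2 were lower (13.5%). DESeq2 called crybb3 higher, at 2.06 ± 0.74 (adjusted p = 0.044; 6.98% of all tested genes were higher), and lim2.2 and mipa lower (6.8%), while limma voom called 0. Between the libraries of the groups 1 lens gene did not overlap on the high side (18.8% of all tested genes) and 1 on the low side (20.6%). Without high salt 1m edgeR called 1 higher, crybb3 (5.66%) and 1 lower, lim2.2 (5.31%), and without control 1m it called 1 lower, mipa (2.61%). Without a count filter 1, lim2.2, was lower (2.06%).

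The classes differed in their estimates. The median was -0.06 over 12 beta genes and -1.65 over 24 gamma M genes, of which 1, crygmx, was above 0. By edgeR the lowest adjusted p-values were those of lim2.2 (-3.13 ± 0.82, adjusted p = 0.057), crybb3 (2.02 ± 0.68, adjusted p = 0.10) and mipa (-1.66 ± 0.67, adjusted p = 0.16; log2 ± SE, n = 2 and 3). mipb, the second aquaporin 0 gene, was at -0.35 ± 1.196 (adjusted p = 0.88), and at 0.57 with the suffix as a block. The abundant beta genes sat close to 0, with crybb1 at 0.53 ± 0.91 and cryba4 at -0.12 ± 0.91. Summed to 1 gene, the gamma M class stood at -0.71 ± 1.42 (adjusted p = 0.79), a difference within its error.

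With the suffix as a block, 1 lens gene rose in high salt (lim2.3, 1.22 ± 0.35, adjusted p = 0.045; 5.9% of all tested genes rose; -1.17 without both control 1m and high salt 2m in the fit with no block) and 5 fell (6.48% of all tested genes fell). Those that fell were lim2.2 (-3.48 ± 0.71, adjusted p = 0.017), crygm2d15 (-3.27 ± 0.68, adjusted p = 0.018), crygm2d20 (-1.65 ± 0.38, adjusted p = 0.025), crygm2d2 (-1.86 ± 0.52, adjusted p = 0.044) and crygm2d14 (-2.996 ± 0.87, adjusted p = 0.048). Nothing particular to the lens is read from these counts. crygm2d15 and crygm2d2 had no count in high salt 1m and none in control 1m, so within suffix their difference lay in the 2m pair.

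The direction differed between the suffixes. High salt 2m was above control 2m in 9 of 48 tested genes, and high salt 1m was above control 1m in 37, with another 4 at 0 counts in both (47.4 and 49.4% of all tested genes were above). The gamma M sum was 0.442 times that of control in the 2m pair and 2.02 times in the 1m pair. The median over the tested lens genes was -2.61 without high salt 2m, 0.21 without high salt 1m and 0.73 without control 2m.

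**Figure D4:**
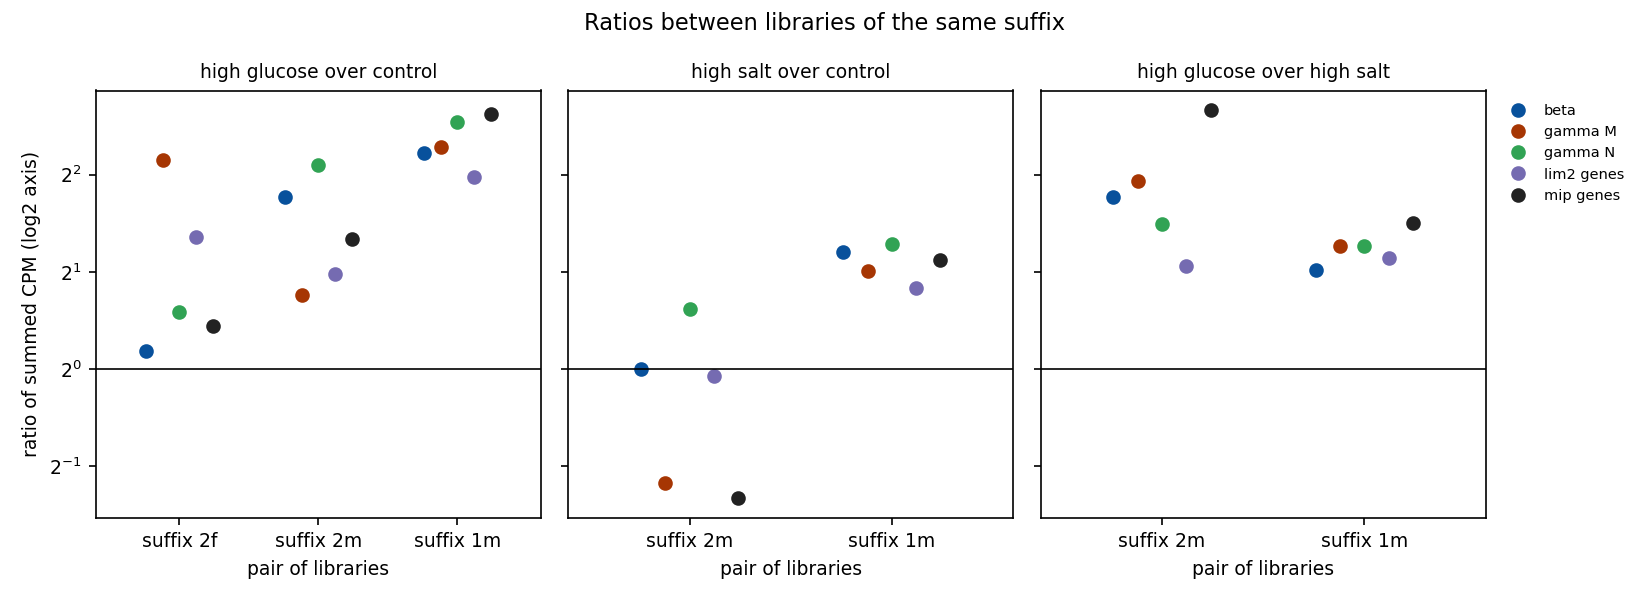
Ratio of summed CPM (log2 axis) between libraries of the same suffix, for 5 sets of lens genes; each point is the ratio of 1 library to 1 library, and the line marks a ratio of 1. High glucose over control lies above 1 for each set and suffix, whereas high salt over control lies at or below 1 for beta, gamma M, lim2 and mip genes in the 2m pair and above 1 in the 1m pair.

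Between the treatments, high glucose was above high salt in 47 of 48 tested genes (52.5% of all tested genes), with a median of 1.60, against 0.04 over all tested genes. edgeR's quasi-likelihood test called 0 lens genes (1.9% of all tested genes were higher and 3.05% lower). At an unadjusted p under 0.05, 3 lens genes were higher (12% of all tested genes) and 0 lower. limma voom called 0. mipa was nearest to the threshold at 2.60 ± 0.70 (adjusted p = 0.062, n = 3 and 2), and it passed in DESeq2 (2.57 ± 0.60, adjusted p = 6.8e-04; 5.74% of all tested genes were higher). By edgeR mipa was also called without a count filter (1.65%), without control 1m (4.84%) and without both it and high salt 2m (1.34%). The groups did not overlap for 4 lens genes on the high side (23.6%) and 0 on the low side (21.2%).

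The gamma M median was 2.70 and the beta median 1.25. crygm2d12 had the largest estimate at 4.39 ± 1.65 (adjusted p = 0.14). crybb3 was the 1 gene below 0, at -1.24 ± 0.66 (adjusted p = 0.28). Without a block, the gamma M class summed to 1 gene stood at 1.81 ± 1.49 (adjusted p = 0.49 by edgeR). The median over the tested lens genes was 0.71 without high glucose 2m, 0.98 without high salt 1m and 3.71 without high salt 2m. With the suffix as a block, 24 of the 48 rose (4.31% of all tested genes), 18 of them gamma M and 3 beta. Those 18 include crygm2d15 and crygm2d2, which had no count in high salt 1m, and reads may be shared between copies. In that fit mipa was at 2.18 ± 0.48 (adjusted p = 0.026), crygm2d20 at 3.43 ± 0.39 (adjusted p = 0.0019) and cryba2b at 1.59 ± 0.26 (adjusted p = 0.010).

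Most lens genes differed between the suffixes. With group in the model, the 5 suffix 2 libraries were compared with the 3 suffix 1m libraries, and 39 of the 48 tested genes rose in suffix 2, where 5.3% of all tested genes rose; 0 lens genes fell (2.94% of all tested genes fell, and 1 lens gene, lim2.2, was lower at an unadjusted p under 0.05). The estimate was above 0 for 46 of the 48 (49.4% of all tested genes), and the median log2 fold change was 2.92, against -0.01 over all tested genes. DESeq2 called 42 (7.65%) and limma voom 22 (4.96%), and neither called a lens gene lower. For 30 of the 48 no suffix 1m library reached the lowest suffix 2 library (6.53% of all tested genes), and for 0 it was the reverse (4.18%).

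The classes moved by different amounts. Of the gamma M genes 23 of 24 tested rose, with a median of 4.01, of the beta genes 8 of 12 (1.89), of the gamma N genes 2 of 2 and of the fibre genes 6 of 9 (2.34), by edgeR. Among the abundant genes the values were 3.97 ± 0.67 for crygm2d13 (adjusted p = 0.0078), 3.90 ± 0.56 for crygm2d10 (adjusted p = 0.0043) and 4.79 ± 0.69 for crygm2d1 (adjusted p = 0.0043). The beta genes crybb1l2 and cryba4 stood at 2.45 ± 0.39 (adjusted p = 0.0061) and 2.15 ± 0.43 (adjusted p = 0.016). crygn2 was at 2.23 ± 0.34 (adjusted p = 0.0049), lim2.4 at 2.19 ± 0.29 (adjusted p = 0.0033) and bfsp2 at 2.79 ± 0.66 (adjusted p = 0.029). The difference in size between classes was not tested.

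Copies with almost no count in suffix 1m gave the largest fitted values. crygm2d15 had 548 counts in the suffix 2 libraries and 1 in the suffix 1m libraries, a ratio of 331 (exact binomial 95% interval 59.2 to 13114). crygm2d11 had 88 counts and 0, and was at least 17.7-fold higher in suffix 2, set against a floor of 3 counts over the suffix 1m libraries. Counted as 1 gene, the summed gamma M class was 3.86 ± 0.58 higher in suffix 2 (log2 ± SE, adjusted p = 0.0047 by edgeR). A split of reads between copies leaves that sum unchanged. Shared reads that were dropped or counted more than once would change it. Genes outside the calls were cryaa (2.09 ± 1.02, adjusted p = 0.22), mipa (1.29 ± 0.37, adjusted p = 0.056), lim2.5 (3.76 ± 1.09, adjusted p = 0.057), lim2.2 (-1.199 ± 0.45, adjusted p = 0.12), crybb1l1, crybb1l3, crybb3, cryba1a and crygm2d11.

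The count of calls rested on few libraries. It was 24 without high glucose 1m (3.88% of all tested genes), 25 without control 1m (2.31%) and 26 without high glucose 2m (2%). Leaving out control 1m and high salt 2m together gave 5 (0.397%), with medians of 1.62 for beta and 3.79 for gamma M genes in that fit. Without group in the model 0 passed, by edgeR. Within groups, high glucose 2f and 2m were above high glucose 1m in 41 and 46 of 48 tested genes (50.6 and 50.5% of all tested genes). High salt 2m was above high salt 1m in 46 (49.4%), and control 2f and 2m were above control 1m in 45 and 46 (49.8 and 50.4%). Each of these counts compares 1 library with 1 library.

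The size of the suffix difference was compared between treatments in a fit with 2 residual degrees of freedom. mipa and cryba1l2 had a smaller suffix difference in high salt than in control, by -2.65 and -3.30 on the log2 scale (adjusted p = 0.010 and 0.045 by edgeR), and these were the 2 of 48 lens genes lower in that test (1.09% of all tested genes), with 0 higher (1.89%). In cryba1l2 the high salt libraries 2m and 1m had 4.90 and 4.75 CPM, against 5.0 CPM in control 2f, 8.37 CPM in control 2m and 0.650 CPM in control 1m. The same difference between high glucose and control was called for 0 lens genes by edgeR (3 at an unadjusted p under 0.05), with mipa at -1.48 (adjusted p = 0.076). It was not fitted with the other tools.

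**Figure D5:**
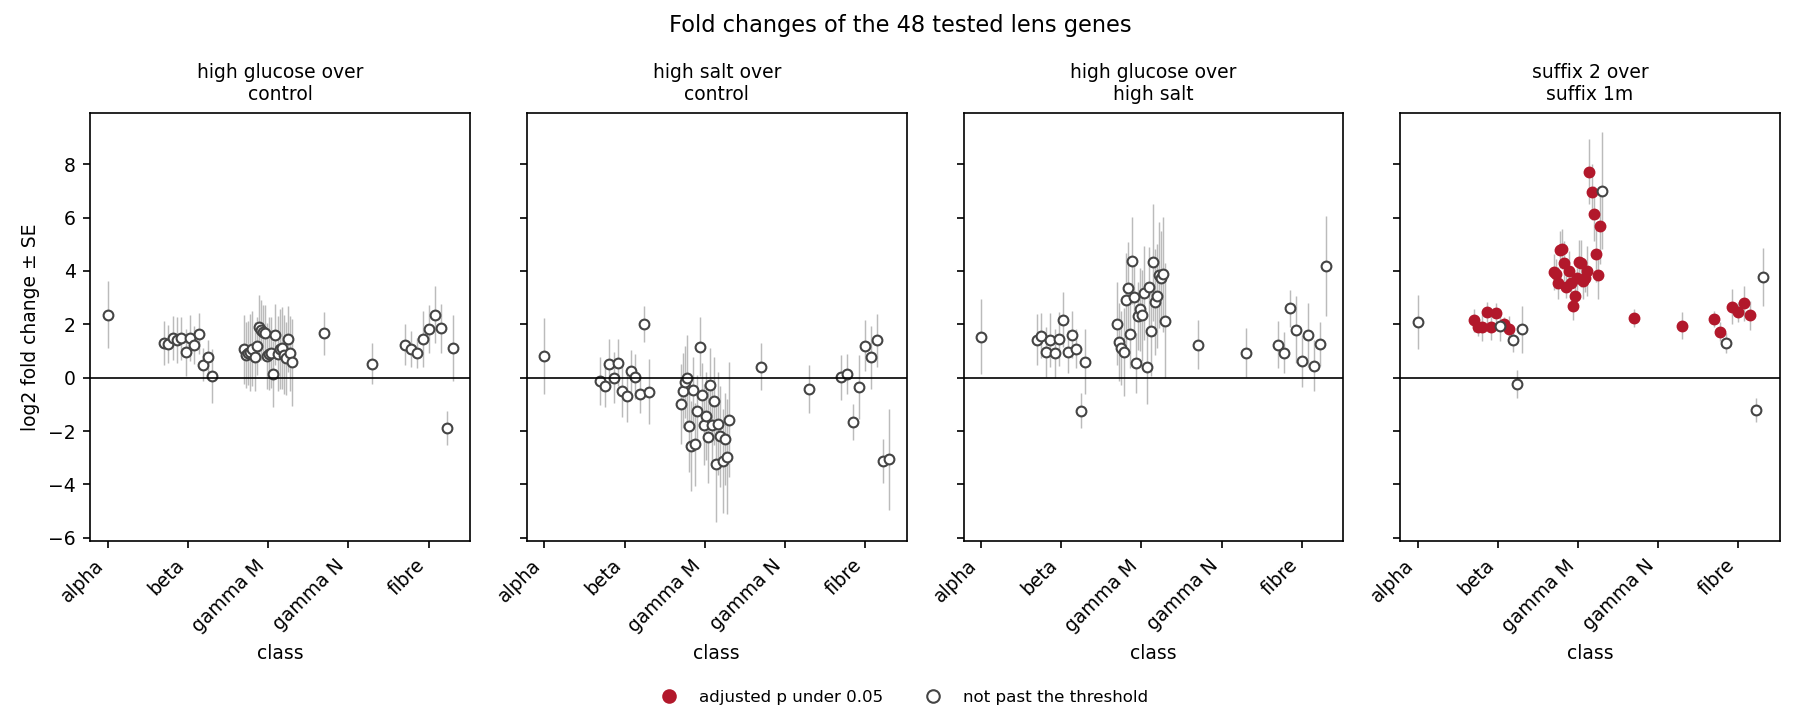
Log2 fold change ± SE of the 48 tested lens genes by class in 4 comparisons; each point is 1 gene, and filled points passed an adjusted p of 0.05 by edgeR. No point is filled in the 3 comparisons of treatments, and 39 are filled in the comparison of suffixes, where gamma M genes reach 7.72.

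Other genes of lens development were read from lists of known function. Of 28 lens regulators 26 were tested, and by edgeR's adjusted p 0 passed between treatments. At an unadjusted p under 0.05, 6 were higher in high glucose (1.85% of all tested genes) and 4 in high salt (12.4%), each against control, and 1 was higher (12%) and 3 lower (12.6%) in high glucose against high salt. DESeq2 called 1 higher in high salt against control (6.98% of all tested genes) and 1 lower in high glucose against high salt (1450 of 20562 genes). Between treatments limma voom called 0. Between suffixes DESeq2 called 4 higher (7.65% of all tested genes) and 1 lower (1078 genes), and limma voom 1 higher (4.96%) and 1 lower (669 genes). By edgeR 2 rose (5.3% of all tested genes) and 1 fell (2.94%). Those that rose were hsf4, the heat shock factor needed for fibre maturation (4.21 ± 1.03, adjusted p = 0.033), and six6b, an eye field factor (0.96 ± 0.26, adjusted p = 0.044). The gene that fell was rbm24a, which encodes an RNA-binding protein and is also expressed in muscle (-0.77 ± 0.17, adjusted p = 0.025). hsf4 was at 0.626, 1.88 and 0.0570 CPM in high glucose 2f, 2m and 1m, 1.43 and 0.0679 CPM in high salt 2m and 1m, and 0.122, 0 and 0 CPM in control 2f, 2m and 1m. Its values in the 1m and control libraries were below 3 counts, so the size of its estimate is uncertain. The factors of the early lens, foxe3, pitx3 and prox1a, did not pass in any of the 4 comparisons, and the median of the list between suffixes was 0.15. In RNA from whole embryos the levels of the listed genes cannot be assigned to the lens. That median therefore does not measure regulator levels in the lens.

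Of 21 tested genes for fibre membranes, junctions and organelle clearance, 3 rose in suffix 2 by edgeR (5.3% of all tested genes). These were capn3a, which encodes a calpain (2.47 ± 0.48, adjusted p = 0.013), the connexin gene cx23 (0.89 ± 0.20, adjusted p = 0.025) and dnase1l1l, the nuclease that clears lens nuclei in zebrafish (2.48 ± 0.67, adjusted p = 0.045). capn3a had 16.4, 91.3 and 12.6 CPM in high glucose 2f, 2m and 1m, 36.6 and 6.85 CPM in high salt 2m and 1m, and 13.4, 14.9 and 1.56 CPM in control 2f, 2m and 1m, lowest in control 1m and highest in high glucose 2m. Another 2, tmod1 and the small heat shock gene hspb1, fell (2.94% of all tested genes). In high salt against control 1 gene of this list rose, the ephrin receptor gene epha2a (0.99 ± 0.24, adjusted p = 0.046, n = 2 and 3; 2.94% of all tested genes rose). For this list DESeq2 called 2 higher in that comparison (6.98% of all tested genes) and limma voom 0. The fit with the suffix as a block called 1 higher (5.9%) and 2 lower (6.48%). Of 8 tested small heat shock relatives of the alpha crystallins, 3 fell in suffix 2, namely hspb8, hspb1 and hspb11 (2.94% of all tested genes fell). In high glucose against high salt 1, hspb6, fell (-2.92 ± 0.72, adjusted p = 0.0497 by edgeR, where 3.05% of all tested genes fell). In that comparison limma voom called 0 genes of the small heat shock list, and DESeq2 and the block each called 1 higher and 2 lower. Over all 20562 tested genes DESeq2 called 5.74% higher and 1450 genes lower, and the block 4.31% higher and 971 genes lower. Between suffixes limma voom called 1 higher and 2 lower in the fibre membrane list and 0 higher and 3 lower in the small heat shock list. Over all tested genes it called 4.96% higher and 669 genes lower.

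Genes of other tissues also moved with the suffix. Over all tested genes 5.3% rose in suffix 2 and 2.94% fell. Of 17 tested neuron genes 13 rose in suffix 2, with summed levels of 1402 to 1965 CPM in the suffix 2 libraries and 802 to 1384 CPM in the 1m libraries. For retinal interneuron and ganglion cell genes 7 of 16 rose (383 to 516 CPM against 258 to 448 CPM), led by gad2 (1.28 ± 0.17, adjusted p = 0.0033) and atoh7 (4.28 ± 0.58, adjusted p = 0.0034). For pigment cell genes it was 5 of 13 (186 to 259 CPM against 85.1 to 156 CPM) and for skeletal muscle genes 7 of 19, with 1 lower (27907 to 46264 CPM against 14135 to 27707 CPM). In RNA from whole embryos, none of these sums can be assigned to a single tissue such as the retina.

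Photoreceptor genes were at low levels throughout, with sums of 34.0 to 46.8 CPM in suffix 2 and 31.1 to 35.3 CPM in 1m, and 2 of 24 tested rose, arr3a and opn1lw2, a share near that of all tested genes. The rod opsin gene rho was at 0 CPM in 6 of the 8 libraries. Surface epidermis genes had 1 higher (5.3% of all tested genes) and 3 lower (2.94%) of 17. Red blood cell genes had 0 of 12 either way by edgeR, also at an unadjusted p under 0.05. Between high glucose and control edgeR and limma voom called 0 genes of these 7 lists. DESeq2 called 1 pigment cell gene lower, where 93 of all 20562 tested genes were lower. At an unadjusted p under 0.05, 2 neuron, 2 retinal interneuron and 1 photoreceptor gene were higher (1.85% of all tested genes). Lower were 1 photoreceptor and 1 pigment cell gene (4.12%). The summed neuron genes ran at 1384 to 1965 CPM in high glucose, 1187 to 1914 CPM in high salt and 802 to 1417 CPM in control, and the skeletal muscle genes at 27707 to 46264, 19315 to 27907 and 14135 to 31132 CPM in the same groups. The part of these tissues in the lens results was not tested.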

How the data were processed

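RNA was sequenced from 8 samples of whole zebrafish embryos. The authors deposited 1 table of raw read counts for 31953 genes; the submitters' processing notes name GRCz11 as the genome build and, as tools, featureCounts 1.5.0-p3, HISAT2 2.0.5, edgeR 3.22.5, StringTie 1.3.3b and DESeq2. The sources used here give no settings, no strand rule and no rule for reads shared by copies, and the labels' extraction protocol describes arrays, although the values are sequencing counts. Columns were matched to groups by name; their suffixes could not be tied to the labels' replicate numbers.

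From the counts, 20562 genes passed edgeR's filter (filterByExpr by group) and were tested with edgeR 4.0.16 in R 4.3.3 (TMM scaling, quasi-likelihood test, Benjamini-Hochberg adjustment over all tested genes, threshold 0.05). Treatments were fitted over all 8 libraries with group alone (5 residual degrees of freedom), and suffix 2 against 1m with group in the model (4). CPM used the TMM-scaled library size, and CPM per kb the table's gene lengths. SE is the log2 fold change divided by the square root of F. Depth was 14650129 to 17317519 counts per library; intervals and floors of 3 counts cover counting error only. Alternatives were DESeq2 1.42.0, limma 3.58.1 (voom), library totals, other filters, the suffix as block, gamma M as 1 gene and left-out libraries. Code was tested on simulated data.

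The suffix was treated as a pairing because deviations from group means, over all tested genes, correlated in each same-suffix pair (0.471 for 1m, 0.436 for 2m and 0.14 for 2f between high glucose and control; 0.362 for 1m and 0.328 for 2m between high salt and control; 0.378 for 1m and 0.346 for 2m between high glucose and high salt). Pairs of different suffix ran from -0.444 to 0.186. Of these, 2 with control 2f (0.186 with high salt 2m, 0.133 with high glucose 2m) were about as high as the 2f pair. The data thus mark 2f as a block of its own less clearly than 1m and 2m. Deviations cancel out within a group by construction, which pushes pairs of different suffix towards negative values. The contrast between same and different suffix is therefore partly fixed in advance. The 2 high salt libraries mirror each other exactly (0.378 and -0.378 with high glucose 1m), so their values are not separate evidence.

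The members, lists and tests were chosen with earlier results of these data known. The rule asked for values in full for the alpha, lim2, bfsp, mip and grifin genes. It asked the same for the beta, gamma M, gamma N and gamma S genes with the highest level per length. For lim2.1, lim2.3, lim2.5, cryaba, cryabb, crygn1 and the gamma S genes only extremes or total counts were given. Other members past the threshold were to be named too; 39 passed between suffixes, so most of those are given by count and range. Of the lists, up to 4 genes past the threshold per comparison were named. Other named genes were chosen after their values were seen.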

Additional observations from a re-analysis of the deposited data

Results flagged for a closer look

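The suffix difference of 2 lens genes differed between high salt and control, tested as an interaction in a fit with 2 residual degrees of freedom. For mipa, one of the aquaporin 0 genes, the log2 difference of suffix 2 over 1m in high salt minus that in control was -2.65 (adjusted p = 0.010 by edgeR). mipa had 10.8 CPM in high salt 2m and 11.1 CPM in high salt 1m, against 45.8 CPM in control 2f, 50.2 CPM in control 2m and 7.86 CPM in control 1m. For cryba1l2, a relative of beta A1 that overlaps crybb1l2, the difference was -3.30 (adjusted p = 0.045), with 4.90 CPM in high salt 2m and 4.75 CPM in high salt 1m, against 5.0 CPM in control 2f, 8.37 CPM in control 2m and 0.650 CPM in control 1m. Over all tested genes 1.09% were lower in that test. Both differences rest on control 1m and high salt 2m, the libraries that stood apart, and without either of them this difference could not be fitted.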

How the results depend on the processing

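No lens gene was called lower in high glucose under any alternative run, by edgeR, DESeq2 or voom. The suffix was also used as a replicate block, a pairing read from the headers and the data. In that fit 4 lens genes were higher in high glucose against control (0.0195% of all tested genes). In high salt against control 1 was higher (5.9%) and 5 were lower (6.48%). In high glucose against high salt 24 were higher (4.31%). DESeq2 called 1 higher (6.98% of all tested genes) and 2 lower (6.8%) in high salt against control, and 1 higher (5.74%) in high glucose against high salt. Without a count filter 1 was lower (2.06%) in high salt against control and 1 higher (1.65%) in high glucose against high salt. Leaving out 1 control or high glucose library gave 0 higher and 0 to 1 lower in high salt against control. In high glucose against high salt it gave 0 to 1 higher. The 1 call in each was mipa without control 1m (2.61 and 4.84% of all tested genes). For suffix 2 against 1m the count of 39 higher (5.3% of all tested genes) became 22 with voom (4.96%) and 0 without group (0.0535%). It was 5 without both control 1m and high salt 2m (0.397%) and 17 of 25 with gamma M as 1 gene (5.23%). With 1 library left out it was 24 to 39 (2 to 4.62%). Limiting it to libraries 1m and 2m, an alternative chosen after seeing the data, gave 40 (3.3%).

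Over the 48 tested lens genes, the point estimate changed sign under at least 1 alternative for 40 in high salt against control, 18 in high glucose against control, 10 in high glucose against high salt and 1 between suffixes, and 0 of the 39 suffix calls did. In high salt against control it was 24 of 47 without control 2m, 14 without high salt 1m and 12 without both control 1m and high salt 2m. Of the genes given with a value for that comparison 6 changed sign. cryba4 was at 0.19 with voom, 0.29 with the block, 0.45 without high salt 1m, 0.17 without control 2f and 0.26 without control 2m, with left-out libraries spanning -1.02 to 0.45. mipb was at 1.02 with voom, 0.57 with the block, 0.21 without high salt 1m and 0.19 without control 2f (left-out libraries spanning -1.203 to 0.21), and crybb1 at -0.60 without high salt 2m and -1.07 without both control 1m and high salt 2m (left-out libraries spanning -0.60 to 1.21). lim2.3 was at -1.17 without both and spanned -0.67 to 2.02 with 1 library left out, crygm2d2 spanned -9.20 to 0.62 and crygm2d14 -5.67 to 0.23, fitted values of copies at or near 0 counts in high salt 1m and control 1m. The median over tested lens genes in high salt against control was -0.51, and 0.00 with gamma M as 1 gene.

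Small classes hung on their most abundant gene. Without it, summed levels (CPM per kb) were 1.502 in high glucose, 0.782 in high salt and 1.03 in control for gamma N, 0.543 for alpha in high salt and 0.344 for gamma S in high salt. Shares were 0.1045%, 0.122% and 0.255% for gamma N in high glucose, high salt and control, and 0.0103% for alpha in high glucose. The causes were not tested. Depth limits the alpha, gamma S and rarer gamma M genes, many of which had fewer than 3 counts in a library.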
